A study of Drosophila melanogaster with 27 samples.

Results

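The bone morphogenetic protein (BMP) pathway of the Drosophila melanogaster larval ovary was described here through its ligands dpp and gbb, the type I receptors tkv and sax, the type II receptors put and wit, the transducers Mad and Med, the inhibitory Smad Dad and the heparan sulfate proteoglycan dally. These 10 genes were listed by name, and rows were found in both count tables by the FlyBase identifier of each symbol. 9 of the 10, out of 16257 genes in the tables, had a row; the identifier that current annotation pairs with Med had none. The tables were made with an older FlyBase release, which may give Med another identifier, so Med was not analysed here. All 9 passed the filter on low counts in each fit.

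In this pathway a secreted ligand brings type I and type II receptors together, and the type I receptor then phosphorylates Mad. Mad enters the nucleus with Med, represses bam in germline stem cells and activates targets such as Dad. In the ovary, BMP ligands from the somatic niche at the tip of each ovariole keep neighbouring germ cells undifferentiated, and dally on the somatic cells helps to hold the ligand close to its source.

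Poly(A) RNA was sequenced from 27 libraries, 3 for each of 9 groups of tissue and stage. Ovaries were taken at 72 h after egg laying (early stage, when terminal filaments begin to form), at 96 h (mid stage) and at 120 h (late stage, white pupae). Whole ovaries came from the strain Oregon R. Somatic cells were sorted by flow cytometry from bab:GAL4 ovaries expressing nuclear GFP (UAS:Green Stinger), in which GAL4 lies in an intron of bab1, and germ cells from nos:GAL4 ovaries expressing the same reporter, whose driver stock also carries UAS-Dcr-2. Each library was a pool of ovaries or of cells sorted from them. Tissue and driver stock differ together, so their parts in any difference between sorted tissues cannot be told apart. The labels number the replicates without tying a number to a day or a culture, so the tests measure the spread between these libraries.

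The libraries held 9680615 to 72875881 counts, and 3 counts, the floor used for a count of 0, came to at most 0.31 CPM (counts per 1000000 counts of the library). The 5 germ cell markers summed to 2028 to 4884 CPM in sorted germ cells and to 11.3 to 44.3 CPM in sorted somatic cells. The 9 ovarian somatic markers were less well separated. Their median in a germ cell library was 4.14% of the stage-matched somatic mean in early replicate 1 and 13.3% in mid replicate 4, but 28.3 to 59.0% in the other 7 libraries. Fat body markers summed to 5633 to 79213 CPM in whole ovaries, to 2.15 to 10.99 CPM in sorted somatic cells and to 16.3 to 60.9 CPM in germ cells other than mid replicate 1, which held 3335 CPM. In these bulk libraries, fewer cells of a type and less RNA per cell cannot be told apart.

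Levels are given as CPM after trimmed mean of M values (TMM) scaling, done separately for whole ovaries and for the 18 sorted libraries, and each mean is over 3 libraries. Changes are log2 fold changes from edgeR's quasi-likelihood test, later minus earlier stage or germ minus somatic, with the standard error (SE). A gene was called at an adjusted p (Benjamini-Hochberg over all genes tested) under 0.01.

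Compared per kilobase (kb) of annotated exon, so that genes of different length can be set side by side, dpp was the lowest of the 9 genes in every group. Its mean ranged from 0.30 CPM per kb in mid somatic cells to 4.19 CPM per kb in early whole ovaries. The other ligand, gbb, stood at 23.9 to 103 CPM per kb and was the highest gene of the set in early somatic cells (103 ± 21.7 CPM per kb, SD, n = 3) and mid somatic cells (65.9 ± 5.31). At the late stage tkv was the highest in somatic cells (134 ± 20.7 CPM per kb) and in whole ovaries (124 ± 7.98). In germ cells sax was the highest at each stage, with 61.3 ± 9.80 CPM per kb in early, 69.9 ± 4.28 in mid and 90.02 ± 5.37 in late germ cells. The heat map of levels per exon length shows these changes of rank.

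**Figure D1:**
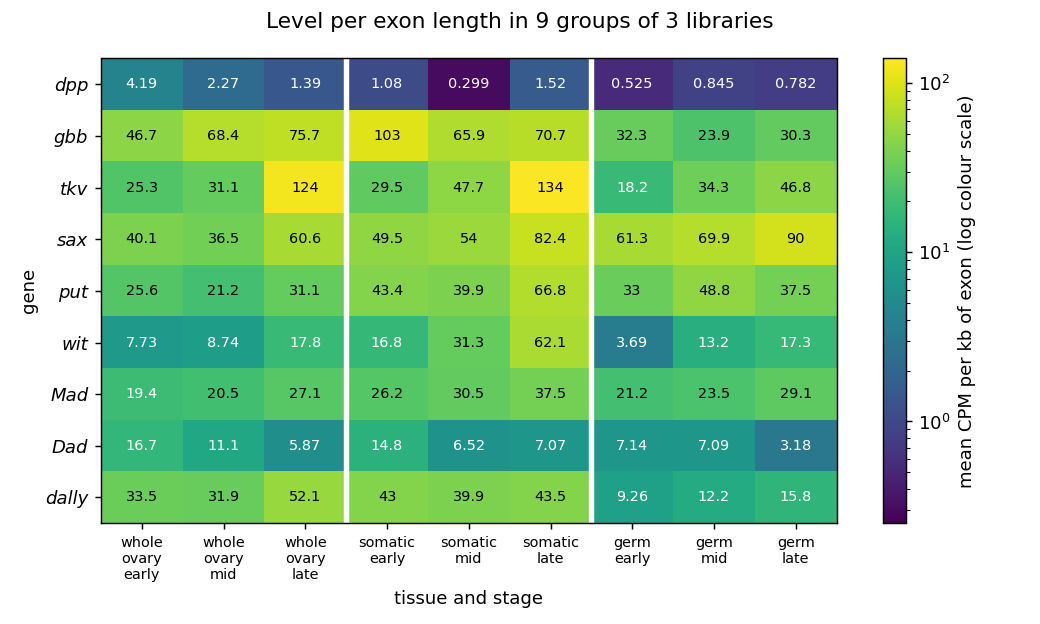
Mean level of each gene (rows) in each group of 3 libraries (columns), in CPM per kb of exon, with the value printed in each cell and colour on a log scale. The dpp row is the darkest in every column, and tkv reaches 124 and 134 CPM per kb in late whole ovaries and late somatic cells.

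Among the 9 genes the rises over time called by edgeR with all libraries were all in receptors. DESeq2 also called rises of Mad from early to late in both whole ovaries and somatic cells. It called a rise of dpp from mid to late in somatic cells as well. Rises of dally in whole ovaries and of Mad in somatic cells were called by edgeR when 1 library was left out. The type I receptor gene tkv rose about 4.6- to 4.9-fold from the early to the late stage in somatic cells and whole ovaries, and the type II receptor gene wit rose about 3.7- and 2.3-fold. The transcript of Dad, which is both an inhibitor and a target of the pathway, fell in the same span to 0.48 of its early level in somatic cells and 0.35 in whole ovaries. The summed level of the 9 ovarian somatic markers was also higher at the end of this span, going from 974 to 1376 CPM early to 2353 to 2593 CPM late in whole ovaries (8 of 9 called higher, while the germ cell markers vas and bgcn fell) and from 1768 to 1854 CPM to 3017 to 3304 CPM in somatic cells (5 higher, and tj lower). Their part in the changes of the BMP genes was not tested. The plot of levels by library shows all values of the 9 genes.

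**Figure D2:**
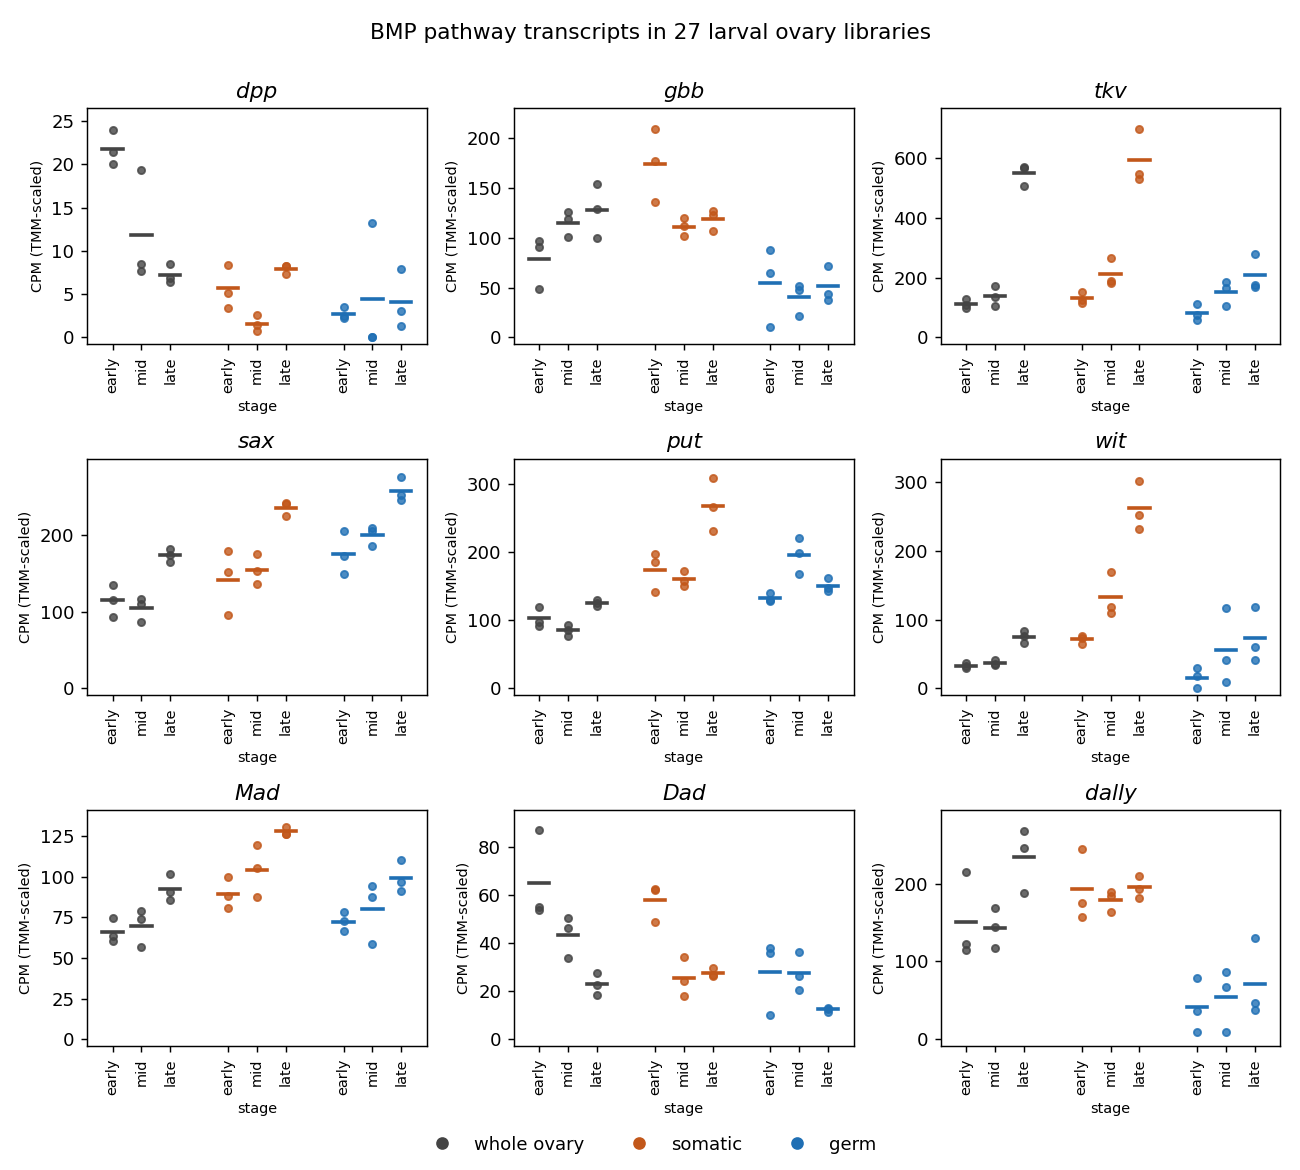
TMM-scaled CPM of each gene in each of the 27 libraries (points; the y axis starts at 0 and differs between panels), by stage, with the group mean as a bar, for whole ovaries (grey), sorted somatic cells (orange) and sorted germ cells (blue). In the tkv panel the 3 late somatic libraries lie between 533 and 700 CPM, above every other sorted library.

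Decapentaplegic, encoded by dpp (FBgn0000490, 2L 2428372 to 2459823, plus strand; coordinates are those of the BDGP6 assembly), is the ligand most often studied in the germline stem cell niche. In whole ovaries its level was 20.04, 21.4 and 24.0 CPM at the early stage, 8.44, 19.4 and 7.63 CPM at the mid stage, and 8.46, 6.92 and 6.39 CPM at the late stage. All early libraries were above all mid and late ones, and mid replicate 2 stood apart from the other mid libraries. The change from early to late was -1.59 (SE 0.34, adjusted p = 0.00617). It was no longer called when any 1 of the 6 early and late libraries was left out (-1.71 to -1.49, adjusted p = 0.0106 to 0.0294). The change from early to mid was -0.89 (SE 0.33, adjusted p = 0.173), and without mid replicate 2 it was -1.43 (adjusted p = 0.00685).

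From early to late in whole ovaries all 4 muscle markers fell as dpp did, while the fat body markers went different ways. Of these 9, Lsp1beta, apolpp and Apoltp were called lower and 4 higher (Lsp2, Fbp1, Fbp2 and Obp99b). Mean apolpp was 15884 CPM early, 4164 CPM mid and 173 CPM late, and mean Apoltp was 1697, 426 and 18.4 CPM. In both, mid replicate 2 held the highest mid value (7193 and 825 CPM). The 4 muscle markers summed to 87.5 to 424 CPM at the early stage, to 42.5, 50.7 and 198 CPM at the mid stage and to 1.91 to 2.47 CPM at the late stage, and mid replicate 2 held the highest of the mid values. The 9 fat body markers summed to 18194 to 24695 CPM early, 33197 to 79213 CPM mid and 5633 to 10265 CPM late, highest in mid replicate 2 as well. The part of either tissue in the fall of dpp was not tested. Early whole ovaries (20.04 to 24.0 CPM) were also above all 6 early sorted libraries (2.28 to 8.40 CPM). The 2 tables were scaled separately, and whole and sorted libraries also differ in strain and in dissociation and sorting. This difference in dpp was not tested. dpp was the only one of the 9 genes to stand above every sorted library at any stage; put stood below them at each stage and sax at the mid and late stages.

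In sorted somatic cells dpp went down and up again. Early libraries held 3.39, 8.40 and 5.17 CPM, mid libraries 1.45, 2.52 and 0.70 CPM and late libraries 8.20, 7.29 and 8.30 CPM. The mid libraries lay below all others, and the late and early libraries overlapped. Neither step was called (early to mid -1.86, SE 0.55, adjusted p = 0.0615; mid to late 2.36, SE 0.56, adjusted p = 0.0152), and the lowest mid value rested on 14 counts. DESeq2 called both, with adjusted p = 0.00683 and 0.00017. In germ cells dpp was at 2.46, 3.48 and 2.28 CPM early, at 0, 13.2 and 0 CPM mid, and at 3.02, 1.31 and 7.91 CPM late. The counts of 0 in mid replicates 1 and 4 allow up to 0.31 and 0.151 CPM, while mid replicate 3 held 348 counts, the highest dpp level of any sorted library. No difference between germ and somatic cells was called for dpp, and its standard error was 1.47 to 1.49 at each stage.

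The second ligand, encoded by gbb (glass bottom boat, FBgn0024234, 2R 23851562 to 23853247, plus strand), was far above dpp per exon length in every group. In somatic cells it was at 177, 209 and 136 CPM early, 102, 112 and 120 CPM mid, and 123, 127 and 107 CPM late. Early libraries were above all later ones. The changes from early to mid (-0.66, SE 0.16, adjusted p = 0.0287) and from early to late (-0.54, SE 0.16, adjusted p = 0.0205) were not called. The latter was called without early replicate 3 (-0.69, adjusted p = 0.0035), and DESeq2 called both (adjusted p = 0.00221 and 0.0059). In whole ovaries the direction was the opposite: 91.2, 96.6 and 48.3 CPM early against 99.8, 129 and 154 CPM late, a change of 0.70 (SE 0.26, adjusted p = 0.0651).

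The type I receptor Thickveins, encoded by tkv (FBgn0003716, 2L 5219000 to 5271384, minus strand), binds Dpp. In whole ovaries it was at 109, 98 and 129 CPM early, 173, 105 and 136 CPM mid, and 567, 573 and 509 CPM late. Early and mid libraries overlapped, and every late library was at least 509 CPM. The change from mid to late was 1.99 (SE 0.20, adjusted p = 0.000152) and from early to late 2.29 (SE 0.20, adjusted p = 5.4e-05). In somatic cells tkv was at 114, 152 and 126 CPM early, 265, 181 and 188 CPM mid, and 549, 533 and 700 CPM late, so that the 3 stages did not overlap. The somatic change was 0.68 from early to mid (SE 0.18, adjusted p = 0.0431), 1.51 from mid to late (SE 0.19, adjusted p = 0.000611) and 2.19 from early to late (SE 0.19, adjusted p = 1.4e-05). The 4 calls of tkv in whole ovaries and somatic cells were made under each of the 14 alternatives run for each of them.

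In germ cells tkv was at 57.2, 73.8 and 111 CPM early, 164, 186 and 106 CPM mid, and 174, 167 and 281 CPM late. Late libraries were above all early ones, by 1.38 (SE 0.33, unadjusted p = 0.00188, adjusted p = 0.443). No gene at all was called between stages of germ cells (0 of 10340, 0%), although 678 had an unadjusted p under 0.05 from early to late in edgeR and DESeq2 called 143. DESeq2 did not call tkv there either (1.34, adjusted p = 0.0178). Of the 9 genes, 2, 1 and 3 had an unadjusted p under 0.05 in edgeR for germ cells from early to mid, mid to late and early to late (all genes 18.8%, 11.6% and 6.56%), and DESeq2 called 0 in each (549, 244 and 143 of all genes).

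Saxophone, encoded by sax (FBgn0003317, 2R 7806484 to 7810067, plus strand), is the other type I receptor and responds mainly to Gbb. Its group means ranged from 105 to 258 CPM. It was at 94 to 135 CPM in early and 164 to 182 CPM in late whole ovaries, and at 95 to 179 CPM in early and 225 to 242 CPM in late somatic cells. The change from early to late was 0.60 in whole ovaries (SE 0.16, adjusted p = 0.0197), 0.74 in somatic cells (SE 0.20, adjusted p = 0.0123) and 0.56 in germ cells (SE 0.19, adjusted p = 0.602). None of these was called, though the late libraries were above all early ones in each tissue. Those in whole ovaries and somatic cells were called without early replicate 3 (0.76, adjusted p = 0.00338, and 0.94, adjusted p = 0.0048). DESeq2 called the same 2 changes (0.63, adjusted p = 0.00199, and 0.73, adjusted p = 0.00395). From mid to late in whole ovaries the change was 0.73 (SE 0.16, adjusted p = 0.0104). It was called without early replicate 2 (0.00888) or 3 (0.00151) and by DESeq2 (0.82, adjusted p = 4.8e-05).

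Punt, encoded by put (FBgn0003169, 3R 14619030 to 14625703, minus strand), is the type II receptor used by both ligands. In somatic cells it was at 185, 141 and 197 CPM early, 172, 158 and 151 CPM mid, and 266, 231 and 309 CPM late. Early and mid libraries overlapped and the late libraries were above both. The rise was 0.76 from mid to late (SE 0.16, adjusted p = 0.00783) and 0.63 from early to late (SE 0.16, adjusted p = 0.00867). Both lay close to the threshold: the first was lost when any of 6 libraries was left out (adjusted p = 0.0146 to 0.0411), namely early replicate 1, late replicates 1 and 3 and each mid library, and the second was lost with 7 (0.0104 to 0.0397), the same 6 and early replicate 2. Both were also lost with another scaling (RLE) in edgeR and with limma's voom test (adjusted p = 0.0103 to 0.0125). In germ cells put was at 140, 128 and 129 CPM early, 221, 168 and 198 CPM mid, and 162, 148 and 143 CPM late. There the late libraries lay below all mid ones, with a change of -0.36 (SE 0.18, adjusted p = 0.488). Whole ovaries held 97.2, 91.5 and 119.5 CPM early, 92.4, 76.8 and 85.6 CPM mid, and 129.5, 125 and 120.1 CPM late, and their change from mid to late was 0.55 (SE 0.13, adjusted p = 0.0136). That change was called by DESeq2 (0.64, adjusted p = 9.9e-05). In edgeR it was called with RLE scaling (0.65, adjusted p = 0.00641) and without early replicate 3 (0.64, adjusted p = 0.00128).

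Wishful thinking, encoded by wit (FBgn0024179, 3L 4064152 to 4071717, minus strand), is the type II receptor known from the neuromuscular junction. In somatic cells it was at 75.7, 63.7 and 73.8 CPM early, 169, 118 and 110 CPM mid, and 252, 232 and 302 CPM late, with no overlap between stages. The change was 0.89 from early to mid (SE 0.18, adjusted p = 0.0128), 1.01 from mid to late (SE 0.18, adjusted p = 0.00342) and 1.89 from early to late (SE 0.18, adjusted p = 2.5e-05). The call from mid to late was lost without mid replicate 2 or 3 or late replicate 1 or 3 (adjusted p = 0.0116 to 0.0215), and that from early to late was made under all 14 alternatives. In whole ovaries wit was at 36.1, 31.9 and 29.8 CPM early, 41.2, 33.8 and 35.5 CPM mid, and 83.2, 75.6 and 66.3 CPM late. The rise from mid to late was 1.02 (SE 0.14, adjusted p = 0.000849) and from early to late 1.20 (SE 0.14, adjusted p = 0.000235), each called under all 14 alternatives. Germ cell libraries were widely spread, at 0.0368, 17.7 and 28.9 CPM early, 117, 41.3 and 9.73 CPM mid, and 59.3, 41.4 and 118 CPM late, and no change there was called (early to late 2.26, SE 1.36, adjusted p = 0.923). The antisense gene dib overlaps 9.49% of the exon bases of wit, and the sources used here do not say whether strand was used in counting; dib itself reached at most 1.33 CPM in any library.

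The changes in whole ovaries, somatic cells and germ cells are drawn together in the plot of log2 fold changes. Of the 9 genes, 0 were called from early to mid in whole ovaries, where 0.994% of all genes were, and 0 in somatic cells, where 1.90% were. At an unadjusted p under 0.05 edgeR gave 2 and 5 of the 9 (all genes 21.3% and 23.4%), and DESeq2 called 0 and 5 (692 and 865 of all genes). From mid to late, 2 were called in whole ovaries (tkv and wit; all genes 14.8%) and 3 in somatic cells (tkv, wit and put; all genes 6.56%), all of them higher. From early to late, 4 were called in whole ovaries (all genes 21.9%) and 4 in somatic cells (all genes 23.0%); tkv, wit and Dad were among both, joined by dpp in whole ovaries and put in somatic cells. From mid to late in somatic cells, the 9 genes had a median change of 0.63, and 9 of 9 were above 0, against a median of 0.01 over all genes. In whole ovaries that median was 0.55, with 7 of 9 above 0, against -0.11.

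Counted by libraries that did not overlap, in either direction, the 9 genes gave 3 from early to mid in whole ovaries (all genes 28.3%), 7 from mid to late (56.9%) and 8 from early to late (46.3%). In somatic cells the same steps gave 5 (26.4%), 6 (43.8%) and 7 (51.5%), and in germ cells 1 (18.5%), 3 (18.3%) and 5 (26.7%).

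**Figure D3:**
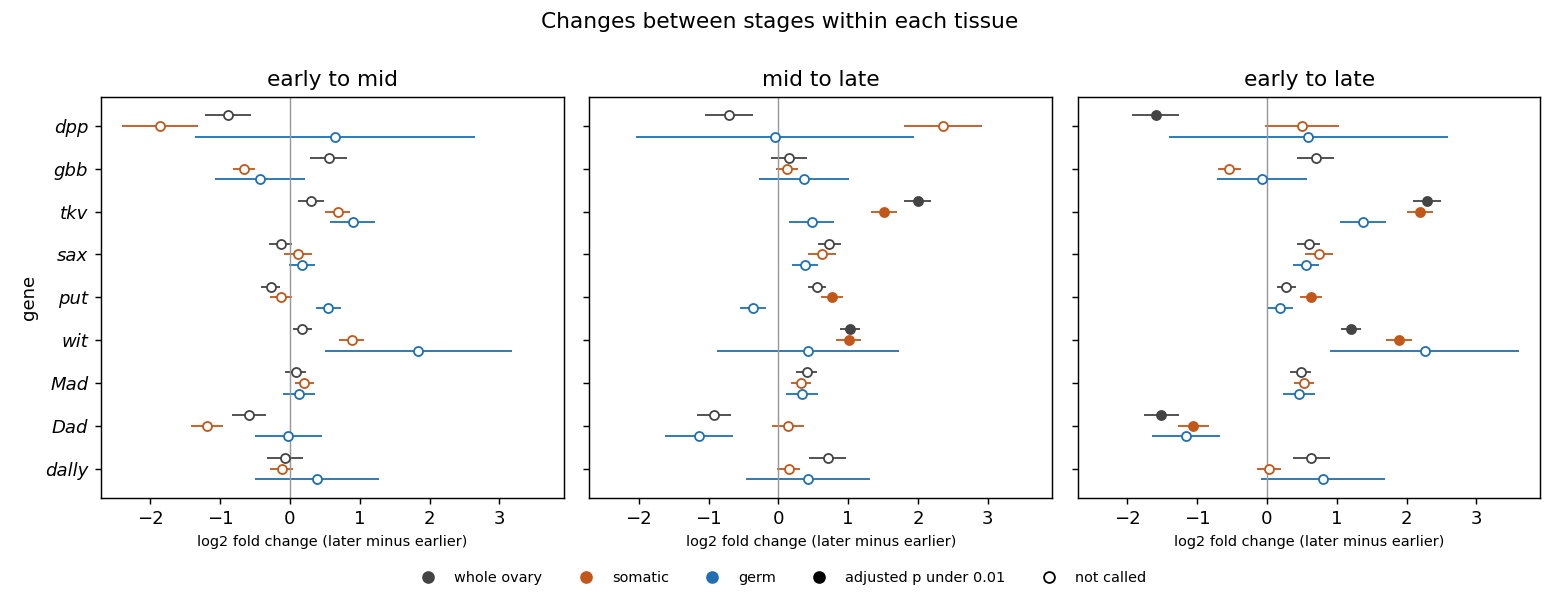
Log2 fold change (x axis; later minus earlier stage) of each gene for early to mid, mid to late and early to late, in whole ovaries (grey), somatic cells (orange) and germ cells (blue). Bars are the SE of the fit and filled points have an adjusted p under 0.01; filled tkv and wit points lie at 1.01 to 2.29 in the mid to late and early to late panels, and no germ cell point is filled.

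The receptor-activated Smad encoded by Mad (Mothers against dpp, FBgn0011648, 2L 3146056 to 3159643, minus strand) carries the signal to the nucleus. It was at 60.6 to 74.4 CPM in early and 85.8 to 102 CPM in late whole ovaries, and at 80.5 to 99.8 CPM in early and 126 to 130 CPM in late somatic cells. The change from early to late was 0.49 in whole ovaries (SE 0.15, adjusted p = 0.0336), 0.53 in somatic cells (SE 0.14, adjusted p = 0.0128) and 0.47 in germ cells (SE 0.23, adjusted p = 0.817). No change of Mad was called by edgeR with all libraries, though early to late in somatic cells was without mid replicate 3 (0.53, adjusted p = 0.00657). DESeq2 called early to late in whole ovaries (0.52, adjusted p = 0.00781) and in somatic cells (0.51, adjusted p = 0.00565). Late libraries were above all early ones in each of the 3 tissues.

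Dad (Daughters against dpp, FBgn0020493, 3R 17054007 to 17070408, plus strand) encodes the inhibitory Smad. In whole ovaries it was at 53.8, 54.7 and 86.7 CPM early, 50.2, 46.3 and 33.8 CPM mid, and 27.7, 22.7 and 18.4 CPM late, with no overlap between stages. It changed by -1.51 from early to late (SE 0.25, adjusted p = 0.00149), a call made under all 14 alternatives. In somatic cells Dad was at 48.5, 61.9 and 62.6 CPM early, 17.9, 34.1 and 24.3 CPM mid, and 26.8, 29.7 and 26.4 CPM late. The lower level was already there at the mid stage (-1.19 from early, SE 0.23, adjusted p = 0.0107), and mid and late libraries overlapped (0.14, SE 0.23). From early to late the somatic change was -1.05 (SE 0.23, adjusted p = 0.00358). It was lost without early replicate 2 or without any 1 late library (adjusted p = 0.0102 to 0.0177). The early to mid change was called in 6 of the 14 alternatives run, among them without mid replicate 2 (-1.47, adjusted p = 0.00431) and with DESeq2 (-1.20, adjusted p = 9.7e-05). In germ cells the late libraries, at 11.5, 12.6 and 13.2 CPM, were below the mid libraries at 20.3, 36.3 and 26.5 CPM (-1.13, SE 0.49, adjusted p = 0.409), while early replicate 1 stood at 10.1 CPM and the other early libraries at 37.8 and 35.7 CPM.

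The glypican encoded by dally (FBgn0263930, 3L 8827505 to 8891192, plus strand) was nearly level in somatic cells, at 157 to 245 CPM early, 163 to 189 CPM mid and 182 to 210 CPM late. Its somatic change from early to late was 0.03 (SE 0.17, adjusted p = 0.914). In whole ovaries it was at 122, 114 and 214 CPM early and 267, 246 and 188 CPM late, with overlap and a change of 0.64 (SE 0.26, adjusted p = 0.0873). That change was called without early replicate 3, the highest early library (1.01, adjusted p = 0.00261). Leaving out the same library gave from mid to late calls of sax, put, Dad and dally beside tkv and wit, 6 of 9 in place of 2, while all genes called rose from 1491 to 2939.

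Between the sorted tissues, the ligand gene gbb, the glypican gene dally and the receptor gene tkv were lower in germ cells than in somatic cells. Over the 3 stages with equal weight, gbb differed by -1.45 (SE 0.29, adjusted p = 0.00109), dally by -1.80 (SE 0.41, adjusted p = 0.00262) and tkv by -0.90 (SE 0.16, adjusted p = 0.000386). These 3 were the members called, where 25.3% of all genes were. For gbb all germ cell libraries, at 10.7 to 88.1 CPM, were below all somatic libraries, at 102 to 209 CPM. For dally the germ cell libraries held 8.79 to 130 CPM against 157 to 245 CPM, again without overlap. The tkv ranges overlapped over the 3 stages. Both gbb and tkv were called under all 25 alternatives run. DESeq2 added Mad (-0.32, adjusted p = 0.00845) and Dad (-0.67, adjusted p = 0.00904), and limma's voom test added wit (-2.72, adjusted p = 0.00069). Leaving out 1 library added wit without germ cell early replicate 1 or mid replicate 1 (-1.57 and -2.14, adjusted p = 0.00345 and 0.00929), put without germ cell mid replicate 1 or somatic early replicate 2 (0.00799 and 0.00786), and Mad (0.00766) and dpp (0.00101, against mid germ cells at 0 counts) without germ cell mid replicate 3.

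At single stages the early and mid comparisons gave 0 called members (all genes 4.79% and 7.47%); edgeR gave 6 and 2 of 9 at an unadjusted p under 0.05 (all genes 31.1% and 34.3%), and DESeq2 called 2 and 0 (1783 and 2048 of all genes). At the late stage 2 of 9 were called (all genes 7.84%). These were tkv, lower in germ cells by -1.52 (SE 0.28, adjusted p = 0.00177), and put, lower by -0.83 (SE 0.17, adjusted p = 0.00309). The same tests called 0 of the 9 ovarian somatic markers at each stage, and 3 over all stages (tj, hh and Wnt4). All 5 germ cell markers were called at each stage. A count of 0 members therefore does not show that the tissues were alike. The libraries of the 2 tissues did not overlap for 7 members early (all genes 40.7%), 3 mid (29.3%) and 8 late (58.7%), and for 2, gbb and dally, over all stages (7.30%). The tkv call was lost without germ cell late replicate 2 or 3 or somatic late replicate 3 (adjusted p = 0.0113 to 0.0159), and the put call without any 1 germ cell late library or somatic late replicate 1 or 3 (0.0123 to 0.0241). Leaving out germ cell early replicate 1 added gbb (adjusted p = 0.00931) and Dad (0.00737) to the late calls, and gbb to the mid ones (0.00314). With all libraries, limma's voom test added wit to the late calls (-2.01, adjusted p = 0.00898).

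The change from mid to late differed between the tissues most clearly for put. Its libraries rose without overlap in somatic cells and were lower without overlap in germ cells, and the difference between the changes was -1.12 (germ minus somatic, SE 0.24, adjusted p = 0.0245), short of the threshold used. It was called by DESeq2 (-1.25, adjusted p = 3.6e-05) and without germ cell mid replicate 4 (-1.11, adjusted p = 0.0052). These were the only 2 calls among the 24 alternatives run, and its adjusted p reached 0.101 in the rest. For tkv that difference was -1.04 (SE 0.39, adjusted p = 0.162). None of the 9 genes was called in any of the 3 tests of a difference in change, where 0.0356%, 0.276% and 0.116% of all genes were; 2, 3 and 0 of the 9 had an unadjusted p under 0.05 (all genes 12.8%, 18.9% and 11.3%), and DESeq2 called 0, 1 and 0 (418, 555 and 324 of all genes; early to mid, mid to late, early to late). The smaller rise of tkv in germ cells is therefore not shown to differ from that in somatic cells.

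In the germ cell libraries with the lowest somatic markers, the members were spread from near 0 to above the somatic level. In early replicate 1 the somatic markers were widely spread as well: en and inv had 0 counts, Wnt4 was at 0.90%, tj at 1.33%, bab2 at 4.14% and hh at 4.51% of the somatic level, while bab1 was at 41.1%, htl at 78.2% and stumps at 139.6%. The percentages of en and stumps say little, as their early somatic means were 0.89 and 0.95 CPM, each with a lowest value of 0. stumps itself was at 1.32 CPM in that germ cell library. In early replicate 1 wit was at 0.0518% (1 count), dally at 4.68%, gbb at 6.12% and Dad at 17.5%, while tkv was at 43.7%, dpp at 43.6%, Mad at 74.2%, put at 80.3% and sax at 145%. This library also held the blood cell marker Hml at 106 CPM (2877 counts), against at most 1.08 CPM in any other sorted library. The blood cell markers NimC1 and He had 0 counts in it, Pxn was at 47.0 CPM, and fat body markers summed to 60.9 CPM. The part of other cell types in its values was not tested. In mid replicate 4, where the 9 markers ranged from 0 to 45.6%, dpp had 0 counts, dally was at 4.92% and wit at 7.36%, against 43.2% for gbb, 50.3% for tkv, 84.2% for Mad, 103.9% for Dad, 124% for put and 135% for sax. Across all 9 germ cell libraries sax stood at 104 to 145% and Mad at 56.1 to 90.6% of the somatic level, above the median of the somatic markers in 9 of 9 libraries, and put at 53.2 to 138%, above it in 8. Dad was above it in 8 libraries, gbb in 7, tkv in 6, dpp in 5, dally in 3 and wit in 1. Of the markers themselves, bab1 and htl were above it in 9 and the other 7 in 1 to 4. These percentages share the somatic mean of their stage and carry no test.

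**Figure D4:**
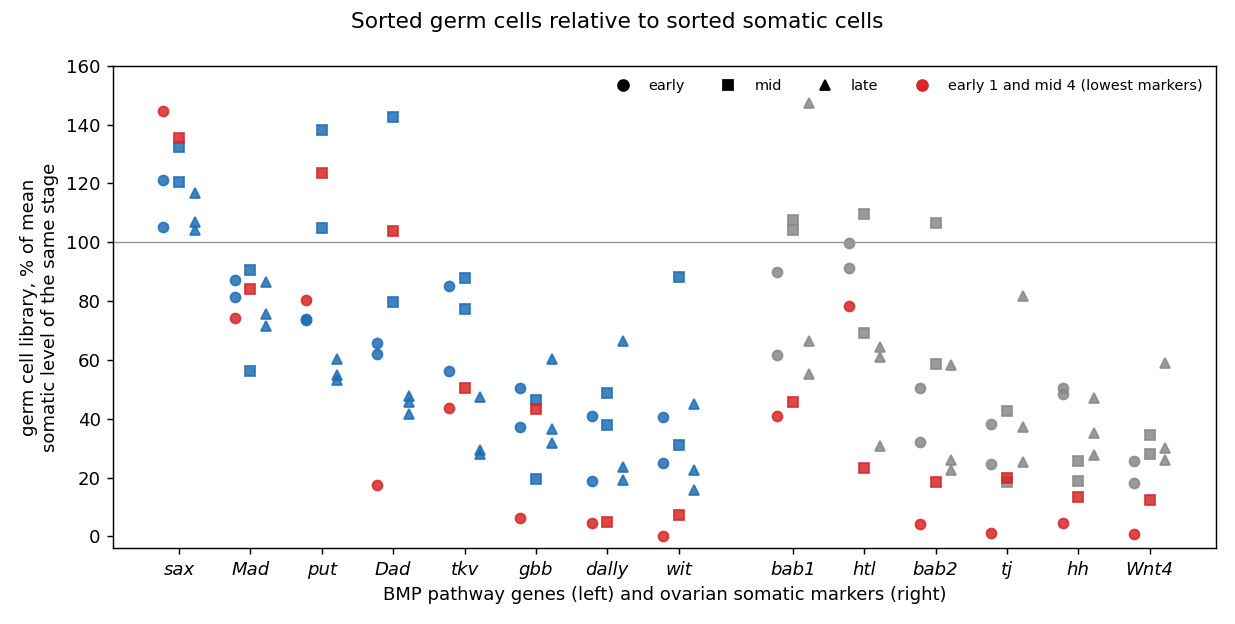
Level in each of the 9 sorted germ cell libraries as a percentage of the stage-matched somatic mean (y axis), for 8 BMP pathway genes (blue) and 6 somatic markers (grey); circles are early, squares mid and triangles late, and red points are early replicate 1 and mid replicate 4. sax lies at or above 104% in every library, and wit and dally lie below 8% in both red libraries; dpp, whose range reached 848%, and the markers en, inv and stumps are not drawn.

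The somatic markers moved with these comparisons. Without the 5 germ cell libraries in which they had a median over 40% of the somatic level, a limit set after the data had been seen, the count of members called between germ and somatic cells was 5 early, 4 mid, 6 late and 7 over all stages, while 17.0%, 18.2%, 21.2% and 35.1% of all genes were called. With those libraries left out, wit was lower in germ cells at the late stage by -2.38 (adjusted p = 4.4e-06) and dally by -2.23 (adjusted p = 2.7e-06), against -1.84 (adjusted p = 0.224) and -1.46 (0.171) with all 3 libraries. Early and mid germ cells are then 1 library each, assumed to vary as the other groups do, and a limit on somatic markers leaves out libraries on the side where somatic genes are high.

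Other genes of the pathway were read from a list of 26, of which 24 passed the filter; the ligand gene scw reached at most 0.402 CPM, and tsg had 0 counts in each library. Among processing and extracellular genes, tok, a protease of the Tolloid family, changed by -1.55 from early to mid in somatic cells (SE 0.25, adjusted p = 0.00486) and by -2.18 from early to late in whole ovaries (SE 0.34, adjusted p = 0.00112). The BMP antagonist gene sog was at 1.94 to 4.59 CPM in early and 26.3 to 30.8 CPM in late whole ovaries, a change of 3.05 (SE 0.31, adjusted p = 0.000114). In somatic cells sog was at 35.1 to 61.9 CPM late against 0.988 to 4.18 CPM early (4.26, SE 1.28, adjusted p = 0.0374). magu, which encodes a secreted modulator of Dpp, rose from early to mid in whole ovaries (1.12, SE 0.14, adjusted p = 0.00517) and fell from mid to late (-1.77, SE 0.14, adjusted p = 4.8e-05).

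The type IV collagens Col4a1 and vkg, which bind Dpp outside the cell, moved in opposite directions in the 2 preparations. In whole ovaries Col4a1 changed by -3.32 from early to late (SE 0.51, adjusted p = 0.00106) and in somatic cells by 6.0 (SE 0.82, adjusted p = 0.00136); vkg changed by -2.86 and 6.362. Fat body and blood cells make much of the larval type IV collagen, and the 4 blood cell markers did not move together in whole ovaries. Hml fell from a mean of 282 CPM early to 2.15 CPM late and was the only one called, while NimC1 had means of 10.2 and 9.26 CPM, He of 1.53 and 1.11 CPM, and Pxn, a peroxidasin gene, of 130.3 and 373 CPM; their sum was 284 to 668 CPM early and 379.5 to 394 CPM late. In sorted somatic cells Hml had a mean of at most 0.77 CPM and NimC1 of at most 0.128 CPM, He had 0 counts, and Pxn had a mean of 30.6 CPM early and 1923 CPM late. The part of blood cells in these collagen changes was not tested.

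The Dpp-repressed gene brk, whose product represses Dpp targets, rose in both preparations. In whole ovaries it was at 10.8, 7.44 and 9.18 CPM early, 36.6, 19.5 and 36.6 CPM mid, and 77.2, 68.8 and 69.3 CPM late, with a change of 2.98 from early to late (SE 0.26, adjusted p = 5.7e-05). In somatic cells it rose by 2.53 (SE 0.32, adjusted p = 0.000257). bam, the differentiation factor that BMP signalling represses in germline stem cells, was at 3.35 to 7.49 CPM in early, 29.7, 12.6 and 66.0 CPM in mid and 111, 135 and 44.8 CPM in late germ cells. Its early libraries were below all later ones, but no change was called (early to late 4.06, SE 0.68, adjusted p = 0.19). Its level was higher in germ than in somatic cells over all stages, with a log2 difference of 3.39 (SE 0.36, adjusted p = 2.6e-06). In whole ovaries bam rose from mid to late by 3.69 on the log2 scale (SE 0.44, adjusted p = 0.000428).

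Counted over the list of 24 tested genes, 11 changed from early to late in whole ovaries (5 higher, 6 lower; all genes 21.9%) and 10 in somatic cells (5 higher, 5 lower; all genes 23.0%). Those in whole ovaries were sog, cv, Fs, brk and bam (higher) and Fur1, tok, magu, wdp, Col4a1 and vkg (lower). Those in somatic cells were Fur2, Col4a1, vkg, Dd and brk (higher) and tok, cv-2, nord, wdp and spict (lower). brk was higher and tok and wdp lower in both. In germ cells 0 of 24 were called between stages by edgeR (6, 5 and 6 at an unadjusted p under 0.05, against 18.8%, 11.6% and 6.56% of all genes), and DESeq2 called 3, 0 and 3, against 549, 244 and 143 of all genes. Over all stages 12 of 24 differed between the sorted tissues, where 25.3% of all genes did. 9 of them were lower in germ cells, among them the second glypican gene dlp (-1.33, SE 0.13, adjusted p = 7.6e-07), and tok, fu and bam were higher.

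As a description of how the genes moved among themselves over the 18 sorted libraries, on log2(CPM + 1), wit and dally had a Pearson r of 0.87, tkv and wit of 0.83, tkv and Mad of 0.80, and gbb and dally of 0.80, while sax and Dad had r = -0.67. These libraries share stages, tissues and their content of somatic markers. Among all tested genes, those most like each member were LanB2 (r = 0.98) and nemy (0.98) for wit, Galt (0.97) and CG12290 (0.96) for gbb, stg (0.97) and moody (0.97) for dally, MSBP (0.96) and Dg (0.96) for tkv, and neo (0.93) and Sobp (0.91) for Mad. For sax they were CG12213 (0.92) and CG32354 (0.86), for Dad Best1 (0.90) and dpr17 (0.89), for put CG8726 (0.89) and CG42259 (0.89), and for dpp CG14238 (0.84) and CG15643 (0.84).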

How the data were processed

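Poly(A) libraries from whole ovaries and from sorted somatic and germ cells were sequenced as single-end reads. Per the labels, the authors used STAR 2.7.6a and RSEM 1.3.3, and they deposited gene-level expected counts (RSEM estimates) in one table of whole ovaries and one of sorted cells. Longer tables of the same experiment were not used, nor were any fold changes. Reads shared between genes are split by the estimate, and antisense overlaps stay uncertain.

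Expected counts were rounded, filtered with filterByExpr (minimum count 10, total 15), scaled by TMM and tested with edgeR 4.0.16 (glmQLFit, robust; glmQLFTest) in R 4.3.3, with one fit per tissue and one of the 18 sorted libraries, called at an adjusted p under 0.01. CPM per kb used the union exon length of the Ensembl BDGP6 annotation, in which 16206 of 16257 identifiers were found. All listed genes are named whatever their values; the likest genes are the top 2 by r. Members and gene lists were chosen with earlier results of these data known. Alternatives were DESeq2 1.42.0, other scaling (RLE), no filter, limma 3.58.1 (voom), a replicate block, leaving out each library, leaving out mid germ cells and leaving out germ cell libraries rich in somatic markers. Scripts were tested on simulated data. Floors of 3 counts cover counting error only, while SEs come from the spread between libraries, and no sequences were used here.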

Additional observations from a re-analysis of the deposited data

Results flagged for a closer look

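The change of the type II receptor gene put from mid to late went in opposite directions in the sorted tissues: every late somatic library was above every mid one, and every late germ cell library was below every mid one. The germ cell change alone was not called (-0.36, adjusted p = 0.488 in edgeR). Mid and late libraries did not overlap, in either direction, for 43.8% of all genes in somatic cells and 18.3% in germ cells. The difference between the changes, germ minus somatic, was -1.12 (SE 0.24, adjusted p = 0.0245 in edgeR). It is listed for this contrast of directions and for its test at an adjusted p under 0.05, and it did not reach the 0.01 used for calls. Of the 24 alternatives run, 2 called it, and the highest adjusted p among them was 0.101. Over all genes the median of this difference was 0.20. Of the 31 genes called for it, 28 were higher and 3 lower, the direction of put.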

How the results depend on the processing

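Of 2691 values of single members under alternatives, 2565 kept their side of the threshold without reversing a call, 45 lost a call, 79 gained one and 2 reversed with a call; among those with no call on either side, 104 had the other sign. With DESeq2 the count of members called was 5 in place of 2 for whole ovaries mid to late and 6 in place of 4 early to late. In somatic cells it was 5 in place of 0 for early to mid, 4 in place of 3 for mid to late and 7 in place of 4 for early to late. DESeq2 gave 2 in place of 0 for germ against somatic cells early, 5 in place of 3 over all stages, and 1 in place of 0 for the difference in the change from mid to late. RLE scaling gave 4 for whole ovaries mid to late and 1 for somatic early to mid, and lost put in somatic cells from mid to late and from early to late. No filter gave 2 for somatic early to mid, and added sax for whole ovaries mid to late and for somatic cells early to late. With voom the count was 1 for somatic early to mid, 2 for somatic mid to late and 2 for somatic early to late. Between germ and somatic cells voom gave 2 early, 3 late and 4 over all stages. Without the mid germ cell libraries 5 members were called over all stages. Without the libraries rich in somatic markers (added after the data were seen) the counts were 5, 4, 6 and 7 for germ against somatic cells early, mid, late and over all stages, and 3, 1 and 3 for the differences in change from early to mid, mid to late and early to late. Leaving out 1 library gave 0 to 1 members for whole ovaries early to mid, 2 to 6 mid to late and 3 to 5 early to late; 0 to 1, 1 to 3 and 2 to 6 for the same somatic steps; 0 to 1 for germ against somatic mid, 0 to 4 late and 3 to 5 over all stages; and 0 to 1 for the difference in change from mid to late. The remaining comparisons stayed at 0. dpp between germ and somatic cells at the mid stage was 1.51, ranged from -8.74 to 2.09 on leaving out 1 library, and was -8.74 both without germ cell mid replicate 3 (adjusted p = 0.00392) and without the libraries rich in somatic markers (0.00379); the remaining germ cell libraries had 0 counts, so that fold is no bound. The cause of the other changes was not tested.

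DESeq2 called more genes than edgeR throughout: 692 against 100, 2809 against 1491 and 3254 against 2202 in whole ovaries, 865 against 189, 1403 against 651 and 3185 against 2284 in somatic cells (early to mid, mid to late, early to late), and 549, 244 and 143 against 0 in germ cells, where 1940, 1203 and 678 genes had an unadjusted p under 0.05 in edgeR. Between tissues it called 1783 against 539, 2048 against 840, 1920 against 881 and 4009 against 2844 (early, mid, late, all stages), and for the differences in change 418 against 4, 555 against 31 and 324 against 13. RLE scaling moved the median of all genes by 0.10 for germ against somatic mid and by -0.10 for germ mid to late. It moved that median by 0.10 for the difference in change from early to mid and by -0.12 for that from mid to late. For the latter, all genes called went from 31 to 17.

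Replicate numbers gave no clear sign of pairing, which correlations with 3 libraries per group cannot exclude. Deviations of same-numbered libraries correlated at -0.32 to 0.36, above 0.1 in 2 of 9 pairs of whole ovaries, 2 of 9 somatic and 0 of 6 germ cell pairs. Differently numbered whole ovary libraries reached -0.45 and 0.45. With the number as a block, the count was 1 for somatic early to mid and 0 for germ against somatic late, as tkv and put were not called there (adjusted p = 0.011 and 0.0139); dpp in whole ovaries early to late (0.0129), put in somatic cells mid to late (0.0111) and dally over all stages (0.0169) were not called either, and Dad in somatic cells early to mid was (0.008).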
